A study of Mus musculus with 12 samples.

Results

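The genes described here carry out and control de novo lipogenesis, the synthesis of fatty acids from acetyl-CoA. They were chosen by name as the core enzymes and regulators of this pathway, and they are Fasn, Acaca, Acly, Scd1, Scd2, Elovl6, Me1, Srebf1, Mlxipl and Pnpla3, which is 10 of the 24062 gene symbols counted in the deposited libraries. Their expression was measured by RNA sequencing of polyadenylated RNA in mice kept for 21 days on a control diet or on a No-Trp diet, which lacks the amino acid tryptophan (Trp). There were 12 libraries, 1 per mouse, in 4 groups of 3. The MYC-ON livers came from male FVB mice of the genotype LAP-tTA/TRE-MYC. In these mice the liver-enriched LAP promoter drives the tTA transactivator, which switches on a MYC transgene once doxycycline is withdrawn at birth, so both diet groups carried the transgene and had it on. Control livers were those of mice 101, 102 and 103, and No-Trp livers those of mice 105, 107 and 108. The xenografts were tumors of HCC53N, a single mouse liver cancer line described as p53 knock out with mutant NRAS, growing under the skin of immunodeficient NOD SCID mice, so that the skin and fat of the host lay beside the tumor. The labels also call the injected cells MYC ON, and whether they carried the transgene was not settled. Control xenografts were those of mice 40, 41 and 43, and No-Trp xenografts those of mice 35, 36 and 37. Strain, host, genotype and site all differ between livers and xenografts, and the labels do not give the sex of the xenograft hosts, so in any comparison of both models these cannot be told apart.

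In de novo lipogenesis, Acly cleaves citrate to acetyl-CoA in the cytosol, Acaca carboxylates it to malonyl-CoA, and Fasn builds palmitate from both with NADPH, part of which Me1 supplies. Elovl6 then lengthens palmitate, and the stearoyl-CoA desaturases Scd1 and Scd2 insert a double bond. Transcription of these enzymes is controlled mainly by Srebf1, which encodes the SREBP-1 proteins that respond to insulin and sterol-sensing signals, and by Mlxipl, which encodes ChREBP and responds to sugar. Pnpla3 encodes a lipid-droplet protein which is a target of both. In liver the pathway runs after feeding, and in mice the liver and fat tissue are its main sites.

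On the No-Trp diet, Fasn and Scd2 fell in the MYC-ON livers and Me1 rose there, while Srebf1, Mlxipl, Acly, Acaca, Elovl6, Scd1 and Pnpla3 did not pass the thresholds. In the xenografts Pnpla3 rose and the other 9 genes did not pass. The diet effect differed between the models for Fasn, Scd2, Me1 and Pnpla3. A gene counted as called where its adjusted p was 0.05 or less and its log2 fold change was 1 or more in either direction (edgeR's quasi-likelihood test with Benjamini-Hochberg adjustment over all genes tested, 3 mice against 3). Levels are given as CPM, the counts per 1000000 counted reads, scaled with TMM factors over all 12 libraries, as the mean ± SD with n = 3. All 10 genes passed the filter on low counts in every comparison.

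In the livers, 1 of the 10 genes was called higher, against a background of 9.28% of 14122 genes tested, and 2 were called lower, against 7.27%. The livers of the diet groups did not overlap for 1 gene that was higher and for 2 that were lower, where the background was 23.6% and 25.0%. The median log2 fold change of the 10 genes was -0.05, beside -0.0031 over all genes tested. In the xenografts, 1 of 10 was called higher, against 0.245% of 14704 genes, and 0 of 10 lower, against 0.116%. For 6 of the 10 genes all 3 No-Trp tumors lay above all 3 control tumors, against a background of 10.8%, and for 0 of 10 all lay below, against 11.8%. An unadjusted p under 0.05 was reached by 6 of the 10 genes there. The share of all genes at that cut was not worked out, here or for the other counts at that cut below. DESeq2 called 2 higher and 0 lower, beside 250 higher and 130 lower of 15342 genes. All 10 genes had a positive log2 fold change there, although those of Acly, Scd2 and Me1 were near 0 and turned negative in some alternatives. The median of the 10 was 0.64, beside -0.0045 over all genes.

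**Figure D1:**
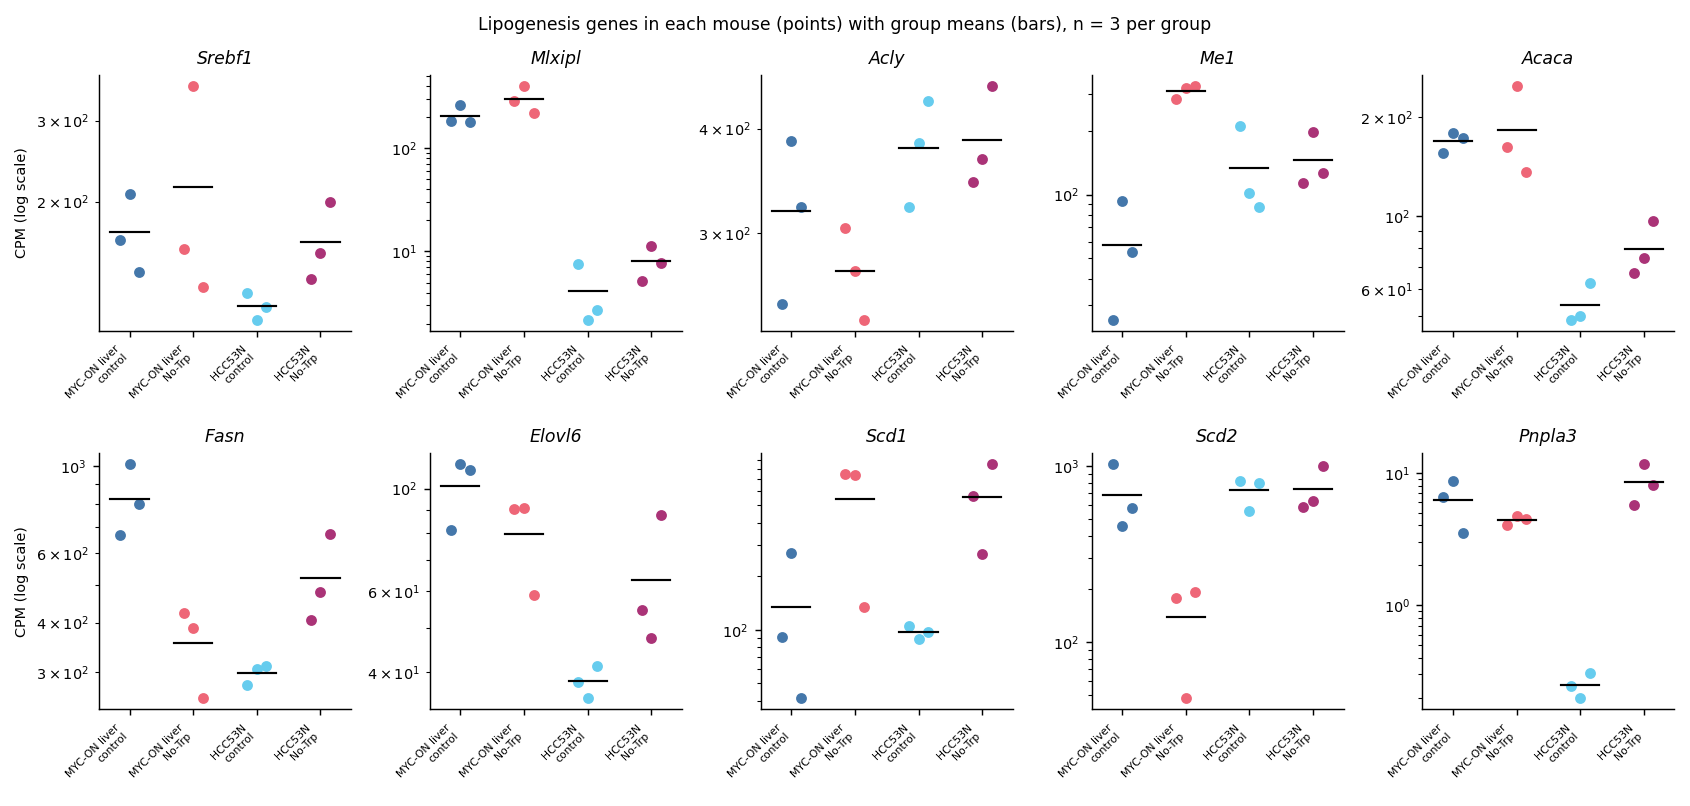
Level of each of the 10 genes in each mouse (points, CPM on a log axis) with the mean of 3 mice per group (black bars). The Fasn, Scd2 and Me1 points of the liver groups do not overlap, and Pnpla3 in the control xenografts lies at 0.20 to 0.30 CPM, below every other library.

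Reads counted on genes ranged from 14660963 to 26085349 per library, and replicate libraries differed by far more than counting error. A resubmission mark stands on 4 of the 12 (livers 101 and 108, control xenografts 41 and 43), and the naming of control xenograft 40 differs from that of the other tumors. Hepatocyte markers (10 genes, all detected in every liver) summed to 12340 to 43030 CPM in the control livers and to 56070 to 133600 CPM in the No-Trp livers, with 3 of 10 called higher (Alb, serum albumin, had a log2 fold change of 2.14 ± 0.83 and Apoa1 one of 0.81 ± 0.53, adjusted p = 0.0942 and 0.287). Proliferation markers (8 genes) summed to 1280 to 1470 CPM in the control livers and to 98.2 to 421.5 CPM in the No-Trp livers, with 7 of 8 called lower (Mki67 at -2.39 ± 0.48, adjusted p = 0.0223). In the xenografts the proliferation markers summed to 514 to 571 CPM on the control diet and to 626 to 822 CPM on the No-Trp diet, with 0 of 8 called by edgeR or DESeq2 and 4 at an unadjusted p under 0.05, all higher. The diet effect differed between the models for 8 of 8, beside 12.7% of 15472 genes in either direction. In the xenografts the hepatocyte markers summed to 528.6 to 1775 CPM, so the tumors held little hepatocyte RNA relative to the livers. Between the diets 0 of 10 were called by edgeR, with 1 higher at an unadjusted p under 0.05 and 1 called higher by DESeq2. Of the other marker lists, 2 of 7 fibroblast and 1 of 6 endothelial markers were called higher and 4 of 4 tested erythroid markers lower in the No-Trp livers. Of the macrophage and biliary markers, 0 of 7 and 0 of 6 were called there. These liver counts, with those of the hepatocyte and proliferation markers, stand beside 9.28% of all genes called higher and 7.27% lower. In the xenografts none of these lists had a call by edgeR, with an unadjusted p under 0.05 for 1 fibroblast, 1 macrophage and 2 biliary markers and 1 DESeq2 call in all, a fibroblast marker. The livers thus differed by diet in hepatocyte, erythroid and proliferation markers as well as in lipogenesis genes. The part of these markers in the results below was not tested. In bulk samples such as these, fewer cells of a type and less RNA per cell cannot be told apart.

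Srebf1 (chr11:60199089-60222581, minus strand, GRCm38, GENCODE M21) is the main insulin-responsive regulator of the pathway. Its level was 165.4, 208.3 and 140.4 CPM in control livers 101, 102 and 103, and 157.5, 356.6 and 130.4 CPM in No-Trp livers 105, 107 and 108. Liver 107 stood above all others while the other No-Trp livers lay within or below the control range, so the groups overlapped. The log2 fold change was 0.35 ± 0.39 (SE, 95% interval -0.57 to 1.26, adjusted p = 0.531), and it was -0.25 without liver 107. In the xenografts Srebf1 was 126.5, 110.8 and 117.7 CPM in control mice 40, 41 and 43 and 136.0, 155.0 and 199.9 CPM in No-Trp mice 35, 36 and 37. All No-Trp tumors were above all control tumors, with a log2 fold change of 0.46 ± 0.18 that did not pass (adjusted p = 0.248). The counts do not separate the transcripts for SREBP-1a and SREBP-1c, and 109 of the exonic bases of Srebf1 (1.93%) lie within exons of Rai1 on the opposite strand.

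Mlxipl (chr5:135089890-135138382, plus strand), the sugar-responsive regulator, was a liver gene in these samples. Control livers held 182.5, 259.3 and 179.0 CPM and No-Trp livers 288.2, 397.7 and 217.7 CPM, with a log2 fold change of 0.56 ± 0.27 (95% interval -0.07 to 1.19, adjusted p = 0.159). The xenografts held 7.55, 2.19 and 2.74 CPM on the control diet and 5.19, 11.2 and 7.68 CPM on the No-Trp diet. The diet groups overlapped in both models. Mlxipl was the member whose level differed most between the models, with a log2 difference of xenografts from livers of -5.64 ± 0.51 on the control diet (adjusted p = 2.60e-06) and of -5.23 ± 0.49 without Trp (adjusted p = 3.72e-06).

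Among the genes that make the substrates, Acly (chr11:100476353-100528000, minus strand) was the most even. It was at 318 ± 70.2 CPM in control livers, 270 ± 34.1 in No-Trp livers, 380 ± 55.0 in control xenografts and 387 ± 55.2 in No-Trp xenografts. Its log2 fold change on the No-Trp diet was -0.22 ± 0.22 in the livers (adjusted p = 0.478) and 0.02 ± 0.18 in the xenografts (adjusted p = 0.973), with 95% intervals of -0.73 to 0.29 and of -0.38 to 0.42.

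Me1 (chr9:86581371-86695953, minus strand), the cytosolic malic enzyme that makes NADPH, rose in the livers. Control livers 101, 102 and 103 held 25.7, 93.7 and 53.7 CPM, and No-Trp livers 105, 107 and 108 held 282.8, 319.9 and 325.2 CPM. The No-Trp livers were all alike and all far above the controls. The log2 fold change was 2.44 ± 0.43, a 5.43-fold rise (adjusted p = 0.0196), and the call was lost without liver 103 (adjusted p = 0.0884) or liver 105 (adjusted p = 0.0533) with the fold change kept at 2.38 and 2.51. Without liver 103 only 7 genes of all tested were called higher and 1 lower in the livers. In the xenografts Me1 was 210.4, 102.3 and 87.7 CPM on the control diet and 113.4, 198.7 and 127.0 CPM on the No-Trp diet, which overlap, and the log2 fold change was 0.12 ± 0.36 (95% interval -0.73 to 0.97, adjusted p = 0.899). In the annotated transcripts of Me1, 28.3% of all stretches of 50 bases also occur in another gene, chiefly in Gm7049 and Gm48795, which are not among the counted symbols, so its counts depend on how reads with several alignments were treated.

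The sequence before the start site of Me1 is shown because Me1 is the member that rose in the livers. It covers the 250 bases ahead of the upstream RefSeq start (chr9:86695915-86696164, minus strand, GRCm38.p6, written 5′ to 3′ along the gene), and it holds none of the motifs searched.

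Me1: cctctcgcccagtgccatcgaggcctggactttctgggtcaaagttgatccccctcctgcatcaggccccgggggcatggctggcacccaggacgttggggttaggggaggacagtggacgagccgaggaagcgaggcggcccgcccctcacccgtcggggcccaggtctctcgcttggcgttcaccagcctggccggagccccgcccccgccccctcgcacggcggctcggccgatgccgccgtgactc

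Acaca (chr11:84129672-84401651, plus strand), the acetyl-CoA carboxylase of the cytosol, held 155.8, 178.6 and 172.6 CPM in control livers and 162.7, 248.3 and 136.6 CPM in No-Trp livers, on both sides of the control range. Its log2 fold change was 0.13 ± 0.24 (95% interval -0.44 to 0.69, adjusted p = 0.713), and it was -0.17 without liver 107 and -0.21 when library totals replaced the TMM factors. In the xenografts the 3 control tumors held 48.6, 49.9 and 62.8 CPM and the No-Trp tumors 67.5, 74.7 and 96.7 CPM, which do not overlap. The log2 fold change of 0.56 ± 0.19 did not pass (adjusted p = 0.196). A share of 30.4% of the 50-base stretches of Acaca transcripts also occurs elsewhere, nearly all of it in Gm5182, which is not among the counted symbols.

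Fasn (chr11:120805846-120824547, minus strand), the fatty acid synthase, had diet effects of opposite sign in the models. Control livers 101, 102 and 103 held 668.5, 1008 and 798 CPM, and No-Trp livers 105, 107 and 108 held 423, 388 and 258 CPM. Every No-Trp liver was below every control liver. The mean was 825 ± 172 CPM against 356 ± 86.8 CPM, and the log2 fold change was -1.20 ± 0.27, or 2.29-fold lower (adjusted p = 0.0263). Leaving out liver 101, 103, 105 or 108 took the adjusted p to 0.0583, 0.0938, 0.0634 and 0.0509, with fold changes of -1.33 to -1.0. In the xenografts control mice 40, 41 and 43 held 278.7, 306 and 310 CPM and No-Trp mice 35, 36 and 37 held 406, 479 and 673 CPM. There every No-Trp tumor was above every control tumor, while the log2 fold change of 0.79 ± 0.20 did not pass (95% interval 0.33 to 1.25, adjusted p = 0.130). None of the 50-base stretches of Fasn transcripts occurs in another annotated gene.

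The difference of the diet effects, xenografts minus livers, was 2.01 ± 0.34 on the log2 scale for Fasn (95% interval 1.27 to 2.75, adjusted p = 0.00735). It stayed between 1.78 and 2.39 with an adjusted p of at most 0.0224 in all 19 alternatives, which left out each library in turn and changed the scaling, the filter, the thresholds, the resubmission covariate and the tool. Over all genes, 12.7% of 15472 were called in this comparison in either direction, and 4 of the 10 lipogenesis genes were.

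The 250 bases ahead of the Fasn start are shown because Fasn is the central enzyme of the pathway and its diet effect differed between models (chr11:120824548-120824797, minus strand, GRCm38.p6, 5′ to 3′ along the gene, capitals mark CCAAT on either strand).

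Fasn: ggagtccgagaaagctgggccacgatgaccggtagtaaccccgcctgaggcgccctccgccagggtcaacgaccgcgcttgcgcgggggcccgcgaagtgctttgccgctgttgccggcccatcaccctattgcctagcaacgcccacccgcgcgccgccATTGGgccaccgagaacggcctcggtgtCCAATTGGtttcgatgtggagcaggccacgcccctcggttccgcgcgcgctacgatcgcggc

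CCAAT, the box bound by NF-Y, a partner of the SREBP proteins, was found there 3 times, centred 88, 60 and 57 bases before the start, and the last pair overlap. RefSeq promoter windows of 250 bases before to 50 after a start were at hand for 8 of the 10 genes, with 12 windows in all, and not for Scd1 and Scd2. On both strands, CCAAT was found in 7 of these 12 windows, beside 37.4% of 32851 mouse promoter windows. The sterol response element TCACNCCAC was found in 1 of 12, a downstream start of Mlxipl, beside 1.24% of all. The E-box CACGTG, which is part of the ChREBP element, was found in 1 of 12, the upstream start of Mlxipl, beside 7.15%. AGGTCA, the nuclear receptor core element, was found in 2 of 12, beside 16.3%. Motifs of different kinds did not overlap in these windows, and no match says only that these letters are not in this window.

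Elovl6 (chr3:129532355-129638495, plus strand), which lengthens palmitate to stearate, had diet values of the same signs as Fasn. Its level was 81.5, 113 and 110 CPM in control livers and 90.2, 90.6 and 58.8 CPM in No-Trp livers, which overlap, and the log2 fold change was -0.33 ± 0.22 (adjusted p = 0.305). Control xenografts held 38.2, 35.2 and 41.3 CPM and No-Trp xenografts 54.6, 47.6 and 87.8 CPM, all higher, with a log2 fold change of 0.72 ± 0.24 (adjusted p = 0.191). The difference between the models was 1.07 ± 0.34 (95% interval 0.33 to 1.81) and did not pass (adjusted p = 0.0526). It passed with library totals (adjusted p = 0.0211), with at least 10 counts in every library (adjusted p = 0.0444), without liver 101 (adjusted p = 0.0490) and without tumor 36 (adjusted p = 0.0455).

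**Figure D2:**
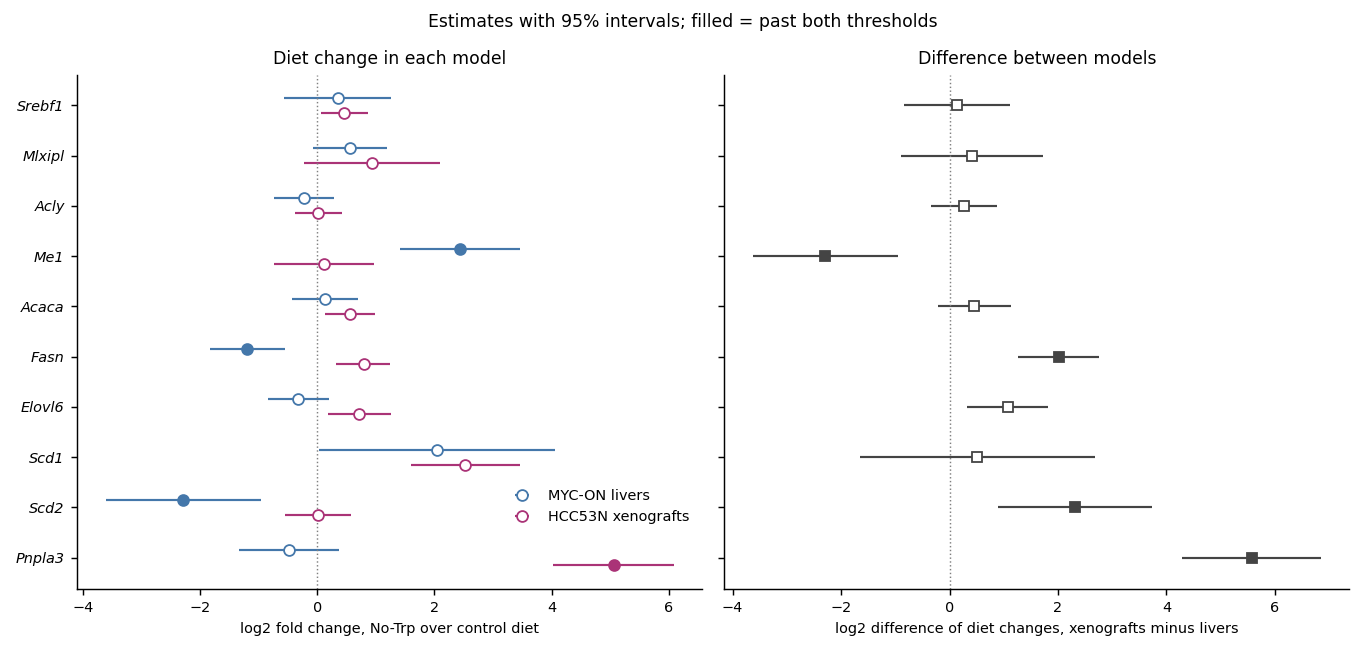
The left panel plots the log2 fold change of each gene, No-Trp over control diet, in MYC-ON livers (blue) and HCC53N xenografts (purple), and the right panel the difference of these changes, xenografts minus livers (squares), all from edgeR with 95% intervals and filled where both thresholds were passed. Fasn, Scd2 and Me1 are filled in the livers, Pnpla3 in the xenografts, and these 4 in the right panel, where Pnpla3 is at 5.57 and Me1 at -2.29.

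Of the stearoyl-CoA desaturases, neighbours on chromosome 19, Scd2 fell in the livers and Scd1 did not pass. Scd2 (chr19:44293674-44306864, plus strand), the form known from brain and developing tissue, held 1019, 455 and 575 CPM in control livers 101, 102 and 103 and 177, 48.0 and 191 CPM in No-Trp livers 105, 107 and 108. All No-Trp livers were below all controls, and liver 107 was the lowest. The log2 fold change was -2.29 ± 0.56, or 4.88-fold lower (adjusted p = 0.0306), and it was between -2.58 and -1.89 with any 1 liver left out, with an adjusted p of 0.0820, 0.0931 and 0.0733 without liver 101, 103 and 105. In the xenografts Scd2 was at 728 ± 150 CPM on the control diet and 737 ± 223 CPM on the No-Trp diet, with a log2 fold change of 0.01 ± 0.25 (95% interval -0.56 to 0.58, adjusted p = 0.991). The difference between the models was 2.32 ± 0.65 (adjusted p = 0.0351), and the call was lost without liver 101 or 103, without any of the 3 control tumors, or without tumor 36 or 37 (adjusted p of 0.0568 to 0.0777, difference 1.91 to 2.43).

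Scd1 (chr19:44394455-44407879, minus strand), the main desaturase of adult liver and fat, had the largest coefficient of variation of the 10 genes in control livers (89.5%), No-Trp livers (65.1%) and No-Trp xenografts (52.0%), but not in control xenografts (8.39%). Control livers 101, 102 and 103 held 90.7, 269 and 41.5 CPM, and No-Trp livers 105, 107 and 108 held 753, 741 and 135 CPM. Liver 108 lay below control liver 102, so the groups overlapped. The log2 fold change was 2.05 ± 0.85 and did not pass (95% interval 0.04 to 4.06, adjusted p = 0.115), whereas without control liver 102 it was 3.05 (adjusted p = 0.0299), and DESeq2 gave 2.04 (adjusted p = 0.0185). Control xenografts 40, 41 and 43 held 105, 88.4 and 96.6 CPM, and No-Trp xenografts 35, 36 and 37 held 566, 265 and 847 CPM. These did not overlap, with 5.77-fold more on the No-Trp diet, a log2 fold change of 2.53 ± 0.40 that missed the threshold (95% interval 1.60 to 3.46, adjusted p = 0.0508). It passed with RLE factors (adjusted p = 0.0497), with library totals (adjusted p = 0.0493), with DESeq2 (adjusted p = 1.27e-10) and without tumor 36 (adjusted p = 0.00901), and the adjusted p was 0.216 with the resubmission mark as a covariate. The diet effect on Scd1 was not shown to differ between the models (0.51 ± 0.99, 95% interval -1.65 to 2.68, adjusted p = 0.762).

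Per kilobase of exon, Scd1 made up 9.04%, 39.8% and 7.45% of the Scd1 and Scd2 sum in control livers 101, 102 and 103 and 82.6%, 94.5% and 44.1% in No-Trp livers 105, 107 and 108. In the xenografts it made up 12.4%, 15.1% and 11.8% in control mice 40, 41 and 43 and 51.9%, 31.9% and 48.8% in No-Trp mice 35, 36 and 37. The share of Scd1 was higher in every No-Trp mouse than in every control mouse of its model, by 55.0 percentage points in the livers and 31.1 in the xenografts. In both models the two-sided exact permutation p was 0.1, the smallest that 3 mice against 3 can give, and this share was chosen after the levels had been seen. The sum itself was 152 ± 47.2 and 136 ± 65.2 CPM per kilobase in control and No-Trp livers, and 153 ± 28.9 and 249 ± 95.3 in the xenografts. Of the 50-base stretches of Scd1 transcripts, 2.97% also occur in Scd2, so few reads can be shared between them.

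**Figure D3:**
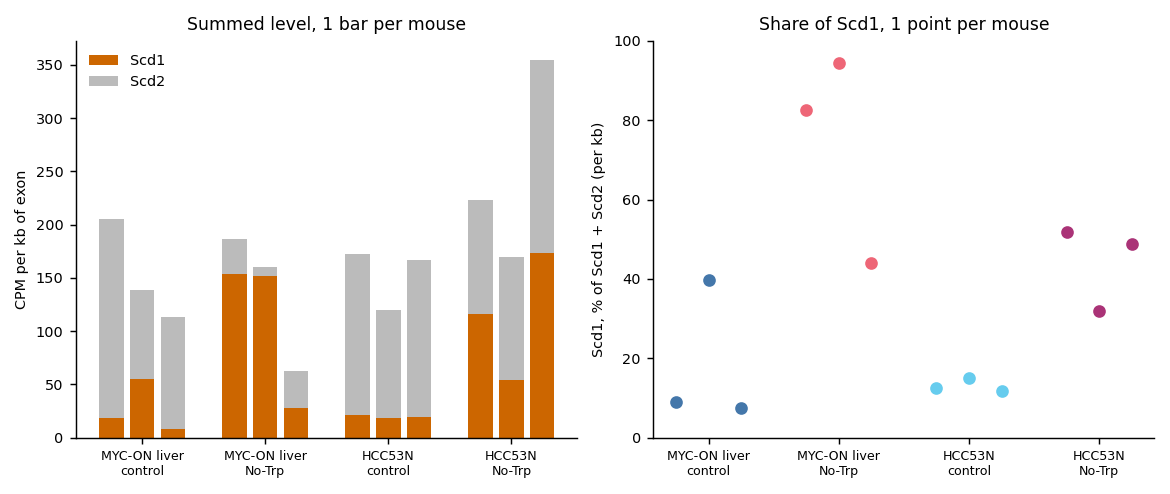
The left panel stacks the levels of Scd1 (orange) and Scd2 (grey) in CPM per kilobase of exon, 1 bar per mouse, and the right panel gives the share of Scd1 in that sum, in percent, 1 point per mouse. The share lies at 7.45% to 39.8% in control livers and 44.1% to 94.5% in No-Trp livers, and at 11.8% to 15.1% and 31.9% to 51.9% in the xenografts.

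Pnpla3 (chr15:84167837-84187236, plus strand) encodes a lipase-like protein of lipid droplets. It was nearly silent in the control xenografts, at 0.245, 0.200 and 0.305 CPM in mice 40, 41 and 43, which was 5 counts in each library. No-Trp xenografts 35, 36 and 37 held 5.70, 11.5 and 8.10 CPM, or 157, 346 and 191 counts. These groups lay far apart, and the log2 fold change was 5.06 ± 0.45, or 33.4-fold (95% interval 4.03 to 6.09, adjusted p = 0.00956). With the resubmission mark as a covariate, which leaves mouse 40 as the only unmarked control tumor, it was 5.07 with an adjusted p of 0.157, and it stayed between 4.77 and 5.29 with any 1 tumor left out. A filter of at least 10 counts in every library removes the gene. In the livers Pnpla3 was at 6.51, 8.74 and 3.51 CPM on the control diet and 4.0, 4.74 and 4.51 CPM on the No-Trp diet, which overlap (log2 fold change -0.48 ± 0.36, adjusted p = 0.351). The No-Trp tumors thus held more Pnpla3 than the No-Trp livers by a log2 difference of 0.94 ± 0.37 (adjusted p = 0.0433, under the fold threshold), while control tumors held less than control livers by -4.63 ± 0.46 (adjusted p = 4.17e-06). The difference of the diet effects was 5.57 ± 0.59 (adjusted p = 0.00165) and was called in all 18 alternatives that kept the gene.

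The 250 bases ahead of the Pnpla3 start are shown because Pnpla3 is the member that rose in the xenografts (chr15:84167566-84167815, plus strand, GRCm38.p6, 5′ to 3′, capitals mark CCAAT read on the opposite strand, centred 97 bases before the start).

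Pnpla3: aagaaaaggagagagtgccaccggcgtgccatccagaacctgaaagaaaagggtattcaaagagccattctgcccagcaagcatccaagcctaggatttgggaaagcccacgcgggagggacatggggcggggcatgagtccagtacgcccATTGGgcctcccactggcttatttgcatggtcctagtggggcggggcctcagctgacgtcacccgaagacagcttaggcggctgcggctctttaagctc

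Adipocyte markers moved with the xenograft results. The 10 markers summed to 29.8, 80.8 and 21.7 CPM in control xenografts 40, 41 and 43 and to 565, 466 and 913 CPM in No-Trp xenografts 35, 36 and 37. Of the 10, 5 were called higher, beside 0.245% of all genes, and 10 by DESeq2, with a median log2 fold change of 4.57. Adipoq, which encodes the fat hormone adiponectin, had a log2 fold change of 4.70 ± 0.55 (adjusted p = 0.0299), and Plin1, the droplet coat of fat cells, one of 5.48 ± 0.50 (adjusted p = 0.00956). Retn rose by 6.27 ± 0.62 (adjusted p = 0.0137). Lep, which encodes leptin, had 3.73 ± 0.98 and did not pass (adjusted p = 0.137), nor did Cfd with 4.80 ± 0.74 (adjusted p = 0.0551). In the control tumors 1 of the 10 markers was at 0 in mouse 40, and mean counts were 6.0 for Plin1, 8.67 for Retn and 3.67 for Lep. Skeletal muscle markers (8 genes) summed to 2.60 to 22.6 CPM in control and 36.0 to 71.2 CPM in No-Trp tumors, with 0 of 8 called (7 at an unadjusted p under 0.05, and 2 called by DESeq2), and among these Ckm had 2.24 ± 0.90 (adjusted p = 0.267). Skin epithelium markers summed to 46.4 to 200 CPM and 44.7 to 69.3 CPM, with 1 of 6 tested called lower (Lor, -2.44 ± 0.37, adjusted p = 0.0436) and Krt14 at -0.74 ± 0.69 (adjusted p = 0.640).

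Fat tissue is a main site of the pathway as a whole, as given above, and not only of Pnpla3, Scd1, Fasn, Acaca and Elovl6. By mouse, the order of Scd1 in the No-Trp tumors (37, 35, 36) was that of the adipocyte markers, whereas Pnpla3 was highest in mouse 36, which had the lowest adipocyte sum of the 3. Elovl6 had the order of Scd1, while Fasn and Acaca ran 37, 36, 35. Scd2, Acly and Me1, members of the same pathway, overlapped between the diets while the adipocyte sum did not. These 3 already stood at means of 727.9, 379.5 and 133.5 CPM in the control tumors. Whether fat around or within the tumors holds part of the Pnpla3, Scd1 and Fasn reads was not tested. In the livers the adipocyte markers did not split by diet (69.9 to 342 CPM on the control diet and 107 to 185 CPM on the No-Trp diet), but Thrsp, which liver also expresses, made up 299 of the 342 CPM in control liver 102, and Adipoq, Plin1, Retn and Lep each had a group mean between 0.0205 and 0.370 CPM. There 5 of 10 were tested, with 1 called higher (Cidec, 3.02 ± 0.63, adjusted p = 0.0235) and 1 lower (Fabp4, -1.05 ± 0.22, adjusted p = 0.0231).

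**Figure D4:**
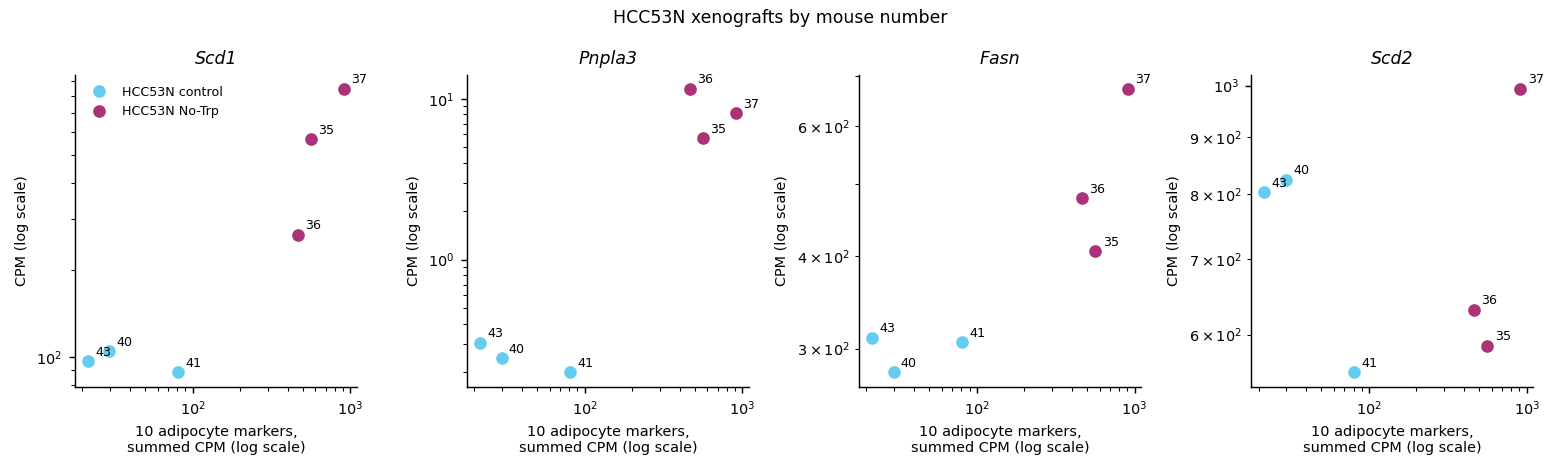
Level of Scd1, Pnpla3, Fasn and Scd2 (CPM, log axis) against the summed level of 10 adipocyte markers (CPM, log axis) in the 6 xenografts, 1 point per mouse with its number. Control tumors lie at marker sums of 21.7 to 80.8 CPM and No-Trp tumors at 466 to 913 CPM, with Scd2 at like levels on both diets.

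Per kilobase of exon, the order of the genes differed among the groups. Scd2 led in control livers (125 ± 54.4 CPM per kilobase), followed by Fasn (75.4 ± 15.7) and Acly (60.3 ± 13.3), with each neighbour in the order overlapping the next down to Acaca (9.90 ± 0.69), and with Pnpla3 apart at the bottom (4.04 ± 1.69). In No-Trp livers Scd1 (111 ± 72.2) and Me1 (80.4 ± 6.0) led, which overlap each other, Fasn was 6th (32.5 ± 7.93) and Scd2 7th (25.4 ± 14.4). In control xenografts Scd2 (133 ± 27.4), Acly (71.9 ± 10.4) and Me1 (34.7 ± 17.4) led without overlap between the first 2 pairs, and Mlxipl (0.752 ± 0.532) and Pnpla3 (0.161 ± 0.034) were last. In No-Trp xenografts Scd2 (135 ± 40.8) and Scd1 (114 ± 59.5) overlapped at the top and Pnpla3 (5.46 ± 1.9) was 8th.

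Between the models, lipogenesis genes were lower in the xenografts on the control diet for 5 of 10, beside 20.2% of 15472 genes, and higher for 1, beside 23.3%. The 5 were Fasn (-1.47 ± 0.24, adjusted p = 0.000260), Acaca (-1.65 ± 0.22, adjusted p = 5.22e-05), Elovl6 (-1.41 ± 0.25, adjusted p = 0.000387), Mlxipl and Pnpla3, and the 1 was Me1 (1.21 ± 0.44, adjusted p = 0.0310), whose groups overlapped and whose call was lost in 4 of the fits that left out a library. Without Trp, 3 were lower, beside 19.1%, and 1 higher, beside 24.5%. The lower ones were Acaca (-1.20 ± 0.22, adjusted p = 0.000549), Mlxipl and Me1 (-1.08 ± 0.43, adjusted p = 0.0487), the last of which lost the call in 9 of 19 alternatives, with an adjusted p of up to 0.282, and the higher one was Scd2 (2.41 ± 0.48, adjusted p = 0.00102). Fasn, at 0.54 ± 0.24, did not pass (adjusted p = 0.0660). Both comparisons share libraries with the diet comparisons above.

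Of the other genes of fatty acid synthesis, 25 of 29 listed were tested in the livers, with 2 called higher and 1 lower, shares no greater than the 9.28% and 7.27% of all genes. These counts and those of the following lists in the livers depend on single mice, since without liver 103 only 7 genes of all tested were called higher and 1 lower, without liver 101 only 178 and 116, without liver 105 only 298 and 70, and without liver 107 only 660 and 609. Idh1, a cytosolic NADPH source, rose by 1.53 ± 0.27 (adjusted p = 0.0188) and Mlycd, which degrades malonyl-CoA, by 1.94 ± 0.35 (adjusted p = 0.0196). G6pdx, the entry enzyme of the pentose phosphate pathway and another NADPH source, fell by 1.43 on the log2 scale (SE 0.28, adjusted p = 0.0216), and Pgd, the next NADPH-making enzyme of that pathway, did not pass (0.56 ± 0.22, adjusted p = 0.104). The polyunsaturated desaturases Fads1 (1.40 ± 0.60, adjusted p = 0.121) and Fads2 (1.75 ± 0.68, adjusted p = 0.0992) and the elongase Elovl5 (1.03 ± 0.33, adjusted p = 0.0590) did not pass, nor did Thrsp (-0.51 ± 1.06, adjusted p = 0.745). In the xenografts 1 of 24 was called. Acacb, the acetyl-CoA carboxylase of the mitochondrial surface, rose from 0.672 to 11.7 CPM by 4.11 ± 0.52 (adjusted p = 0.0253), and Thrsp, a lipogenic nuclear protein which also stands in the adipocyte list, went from 0.650 to 14.8 CPM and missed the threshold (4.45 ± 0.74, adjusted p = 0.0551). The diet effect differed between the models for Acacb (3.72 ± 0.74, adjusted p = 0.0112), Thrsp (4.98 ± 1.53, adjusted p = 0.0490), G6pdx (1.85 ± 0.33, adjusted p = 0.00837), Tkt (1.01 ± 0.23, adjusted p = 0.0163) and Mlycd (-1.87 ± 0.47, adjusted p = 0.0243). These were 4 higher and 1 lower of 25 tested, beside 12.7% of all genes in either direction.

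A list of 23 regulators held genes around SREBP and the liver X receptors (LXR), and also other nuclear receptors, Trib3 and Fgf21. In the livers 6 of them were called higher and 0 lower, beside 9.28% and 7.27% of all genes, with a median of 0.81. By adjusted p alone, 8 were higher and 2 lower, beside 1874 and 1696 of 14122 genes tested. The 6 were the LXR gene Nr1h3 (1.07 ± 0.26, adjusted p = 0.0298), its partner Rxra (1.46 ± 0.29, adjusted p = 0.0210), the bile acid receptor Nr1h4 (2.02 ± 0.29, adjusted p = 0.0146), Pparg (1.02 ± 0.31, adjusted p = 0.0477), Trib3 (2.50 ± 0.65, adjusted p = 0.0357) and the hormone gene Fgf21 (4.14 ± 0.37, adjusted p = 0.00713). Fgf21 went from 0.918 to 16.0 CPM. The members that hold or carry SREBP in the endoplasmic reticulum did not pass, namely Scap (0.25 ± 0.20, adjusted p = 0.374), Insig1 (0.88 ± 0.40, adjusted p = 0.136) and Insig2 (1.29 ± 0.40, adjusted p = 0.0539), and neither did Srebf2 (-0.29 ± 0.15, adjusted p = 0.188). For Nr1h2, the other LXR gene, the difference of the diet effects, xenografts minus livers, was -1.12 ± 0.20 (adjusted p = 0.00819). In the xenografts 0 of 21 were called in either direction by edgeR, with 5 at an unadjusted p under 0.05 and 2 called higher by DESeq2, where Srebf2 had 0.16 ± 0.16 (adjusted p = 0.647), Insig1 -0.24 ± 0.23 (adjusted p = 0.644) and Nr1h3 0.02 ± 0.37 (adjusted p = 0.984).

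The sterol genes driven by SREBF2 gave 2 higher and 2 lower of 20 in the livers, near the 9.28% and 7.27% of all genes. Dhcr7, an enzyme of cholesterol synthesis, was among those that fell (-1.03 ± 0.20, adjusted p = 0.0213). In the xenografts 0 of 20 were called by edgeR or DESeq2. An unadjusted p under 0.05 was reached by 6, all higher, and the share of all genes at that cut was not worked out. Of the 20, 18 had a positive value, with a median of 0.36 beside -0.0045 over all genes. The diet effect differed between the models for 4 of the 20, beside 12.7% of all genes in either direction. All 4 had a more positive value in the xenografts, among them Idi1 (2.03 ± 0.55, adjusted p = 0.0302), Dhcr7 (1.42 ± 0.40, adjusted p = 0.0356) and Stard4 (1.15 ± 0.32, adjusted p = 0.0337).

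The partners and sugar-metabolism targets of ChREBP were called higher in the No-Trp livers for 6 of 14 tested, beside 9.28% of all genes, with 0 lower and a median of 1.27. Among them were Txnip (1.56 ± 0.42, adjusted p = 0.0373), Gckr (1.80 ± 0.34, adjusted p = 0.0196), Pfkfb1 (1.87 ± 0.47, adjusted p = 0.0324), the glucose transporter Slc2a2 (1.68 ± 0.38, adjusted p = 0.0263), and Fgf21, which also stands in the list before. Pklr (1.12 ± 0.42, adjusted p = 0.0861) and Mlx, the dimer partner of ChREBP (0.45 ± 0.19, adjusted p = 0.111), did not pass. Of the 14 log2 fold changes 12 were positive and 2 negative. By adjusted p alone 6 genes were higher and 1 lower, beside 1874 and 1696 of 14122 genes tested. Arrdc4 was among those that went down, from a mean of 49.8 CPM in control livers to 26.8 CPM in No-Trp livers. In the xenografts 0 of 13 were called by edgeR, with 2 at an unadjusted p under 0.05, 1 called by DESeq2 and a median of -0.02. The fructose kinase Khk had a lower diet effect in the xenografts than in the livers (-1.91 ± 0.55, adjusted p = 0.0393), as did Gckr (-2.10 ± 0.57, adjusted p = 0.0318). Many of these are hepatocyte genes, and the summed hepatocyte markers were also higher in the No-Trp livers, as given above.

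Of 15 genes of glycerolipid synthesis, which stores fatty acids, 6 rose, 0 fell and 9 did not pass in the No-Trp livers (median 0.89). This stands beside 9.28% of all genes called higher and 7.27% lower. DESeq2 called 7 of the 15 higher and 1 lower, beside 1649 and 1397 of 15547 genes. Those that rose included the first acyltransferase Gpam (1.31 ± 0.34, adjusted p = 0.0353), Agpat3 (1.77 ± 0.32, adjusted p = 0.0196), Lpin2 (2.16 ± 0.39, adjusted p = 0.0196), and the last enzymes of triglyceride synthesis Dgat1 (1.03 ± 0.17, adjusted p = 0.0178) and Dgat2 (1.53 ± 0.31, adjusted p = 0.0225). Of 17 tested genes of lipid droplets and lipolysis 8 rose, 0 fell and 9 did not pass (median 1.06), beside 9.28% of all genes called higher. Among those that rose were the triglyceride lipase Pnpla2 (1.79 ± 0.15, adjusted p = 0.00517), Plin2 (1.75 ± 0.31, adjusted p = 0.0187), Plin5 (2.53 ± 0.19, adjusted p = 0.00432) and Cidec. In the xenografts 0 of 13 genes of glycerolipid synthesis were called by edgeR or DESeq2, with 5 at an unadjusted p under 0.05 (Gpam 0.90 ± 0.24, adjusted p = 0.138, and Dgat2 0.56 ± 0.18, adjusted p = 0.189). Of 17 droplet and lipolysis genes 4 rose there, beside 0.245% of all genes. These were Plin1, Plin4 (4.25 ± 0.54, adjusted p = 0.0436), Cidec (4.86 ± 0.47, adjusted p = 0.0137) and the lipoprotein lipase Lpl (3.20 ± 0.38, adjusted p = 0.0299), all known from fat cells. Plin1 and Cidec are also in the adipocyte list. Pnpla2, the close relative of Pnpla3, had 0.82 ± 0.20 in the xenografts and did not pass (adjusted p = 0.110).

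The genes of insulin and energy signalling gave 1 call of 16 in the livers, under the background, which was Ppara, which drives fatty acid oxidation (2.25 ± 0.41, adjusted p = 0.0196), and 0 of 16 in the xenografts by edgeR or DESeq2, where 4 had an unadjusted p under 0.05. The diet effect differed between the models for Prkaa1 (1.01 ± 0.26, adjusted p = 0.0247), Irs1 (-1.24 ± 0.33, adjusted p = 0.0278) and Foxo1 (-1.10 ± 0.26, adjusted p = 0.0198). Of the 16 genes, 1 was thus called higher and 2 lower in that comparison, beside 12.7% of all genes in either direction.

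Across mice, after the mean of each group was removed, part of the pathway varied together. Over the 45 pairs of the 10 genes, Pearson's r of log2 CPM over 12 libraries had a median of 0.26 and ranged from -0.65 to 0.87, with 16 pairs above 0.5 and 12 below 0. The points share libraries and 4 group means were removed, so these values are a description with no p. Fasn, Elovl6, Acly, Acaca and Scd1 had r between 0.52 and 0.87 with each other over the 12 libraries. The lowest among them was 0.34 (Acaca with Acly) within the livers alone and 0.35 (Acly with Scd1) within the xenografts alone. Srebf1 had r between 0.54 and 0.85 with all of these except Acly (0.285). Over all 12 libraries Scd2 had a negative r with each of the other 9 genes, down to -0.65 with Srebf1. This held within the 6 livers alone (-0.94 to -0.15) and not within the 6 xenografts alone, where Scd2 had a positive r with all 9 (0.12 to 0.90).

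The genes whose deviations were most like those of Fasn, among 11667 with a mean of at least 100 counts, were led by Sec22c (r = 0.95), Tmed5, Trim41, Phactr4, Zadh2, Wbp2, Dnase1l3, Wfs1 and Gtl3 (r = 0.89). Elovl6 ranked 13th (r = 0.87) and Acly 17th (r = 0.86). The other members ranked lower, with Scd1 214th, Acaca 282nd, Srebf1 873rd, Mlxipl 3109th, Me1 3256th, Pnpla3 3430th and Scd2 7834th. For Srebf1 they were Zfp869 (r = 0.97), Tmem183a, Nr1h2 (r = 0.94), Ccni, Ganab, Csnk1g3, Fads1 (r = 0.93), Cers2, Zbtb44 and Azi2 (r = 0.91). Acaca ranked 52nd (r = 0.85), Scd1 546th, Fasn 1058th (r = 0.56) and Elovl6 1190th. Mlxipl, Pnpla3, Acly, Me1 and Scd2 ranked 1409th, 2376th, 3223rd, 3967th and 10276th.

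**Figure D5:**
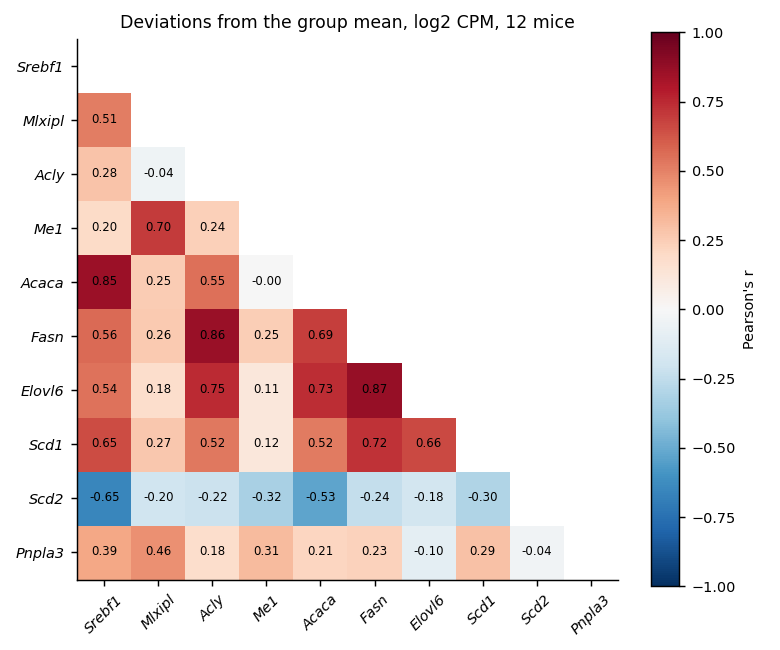
Pearson's r between each pair of the 10 genes, from log2 CPM of 12 mice after the mean of each group was removed (red positive, blue negative, value in each cell). The column and row of Scd2 are negative throughout over the 12 mice, though positive within the xenografts alone, and Fasn with Elovl6 is highest at 0.87.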

How the data were processed

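The deposited values are unnormalized read counts. To make them the authors trimmed with Trim Galore, aligned to mm10 with STAR 2.7.2b and counted reads on genes with HTSeq, with the strand setting and overlap rule not given in the sources used here. Reads left out by the counting or on no gene (24.7% to 39.4% of each library) were not used. Groups were taken from the labels. Tests used edgeR 4.0.16 in R 4.3.3 (filterByExpr, TMM, robust glmQLFit, glmQLFTest, two-sided), within each model for diet and over all 12 libraries for the difference of diet effects and the model contrasts. A standard error is the log2 fold change over the square root of F, and intervals use its degrees of freedom. Co-variation used log2 CPM with a prior count of 2. Alternatives, including DESeq2 1.42.0, are given in the closing section. Each edgeR comparison was also run on counts simulated with the same spread between libraries for every gene. That does not show how it performs at the uneven spread between these mice. Levels per kilobase used merged exons of GENCODE M21, matched by name for 22750 of 24062 symbols.

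The members and gene lists were chosen with earlier results of these data known, so no p was adjusted over a list alone. All 10 members are named throughout, with fixed regulators, partner enzymes and cell markers, up to 5 further called genes per list with a mean of at least 50 counts, and the 10 genes most like Fasn and Srebf1. Pparg, Txnip and Slc2a2 were named outside this rule, to complete a count, after their values were seen. Arrdc4 was also named outside it, after its values were seen, as a gene that went down in its list. Counting error was small beside the spread between mice, except where counts were few. In the control tumors such genes were, among others, Pnpla3, Plin1, Retn and Lep (means of 5.0, 6.0, 8.67 and 3.67 counts). Acacb and Thrsp were also low there (13.7 and 14.3). Some genes that this rule names are not reported here.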

Additional observations from a re-analysis of the deposited data

Results flagged for a closer look

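The diet effect, xenografts minus livers on the log2 scale, differed by the interaction test for 4 genes, and these 4 values are a subset of 10 tested: Fasn at 2.01, Scd2 at 2.32, Me1 at -2.29 and Pnpla3 at 5.57. Fasn and Pnpla3 passed the thresholds with any 1 of the 12 libraries left out. Scd2 and Me1 lost the call without any 1 of 7 and of 5 libraries. Me1 (-2.29 ± 0.61, adjusted p = 0.0306) also lost it with library totals (-1.90, adjusted p = 0.0528). No cause was tested, and the models differ in strain, host, genotype and site.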

How the results depend on the processing

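No paired analysis was possible because the groups share no animal numbers. With any 1 library left out, the count of lipogenesis genes called higher was 0 to 2 in the livers and 1 to 2 in the xenografts, the count called lower in the livers was 0 to 2, and the count with a different diet effect was 2 to 4. In the contrasts of xenografts against livers the ranges were 0 to 1 higher on the control diet, and 1 to 2 higher and 1 to 3 lower without Trp. The livers without mouse 101, 103 or 105 gave 0 lower calls and without mouse 108 gave 1, and the livers without mouse 103 or 105 gave 0 higher calls. DESeq2 called 2 higher in the livers (Scd1, Me1) and 2 in the xenografts (Scd1, Pnpla3). Over all genes it called 1649 of 15547 higher in the livers and 250 of 15342 in the xenografts. RLE factors and library totals also gave 2 in the xenografts. A minimum of 10 counts in every library gave 0 there because it removes Pnpla3, and the resubmission covariate gave 0. Without Trp, dropping the fold threshold gave 3 higher in xenografts against livers, and library totals gave 4 higher and 1 lower. With library totals the median of all genes was -0.30 in the livers (-0.0031 with TMM), 0.11 in the xenografts (-0.0045), 0.41 in the difference of diet effects (0.034), and 0.17 (0.015) and 0.68 (0.15) in xenografts against livers on the control and No-Trp diets, so changes there are relative to that shift. Library totals lowered the median r of the member pairs from 0.26 to 0.17. Of 153 recomputed counts and medians 126 were equal or close to the main value and 27 moved further, and no called member reversed its direction. A count of 3 in place of 4 was taken as close. The small groups, of 3 mice each, limit the precision, and 5 counts per library limit Pnpla3 in control tumors.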
